A study of Arabidopsis thaliana with 24 samples.

Results

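The 9 genes described here make and release iron-mobilizing coumarins in Arabidopsis thaliana roots. They were chosen by their gene identifiers, with no measured value in the rule, but with earlier results of these data known. All 9 were found among the 33602 genes of the deposited expression table. Coumarins are small phenolic compounds that roots secrete when iron is short, and they reduce and chelate ferric iron outside the root so that it can be taken up. They branch off the phenylpropanoid pathway at feruloyl-CoA. F6H1 and F6H2 (feruloyl-CoA 6'-hydroxylases) open the branch, and COSY (coumarin synthase) closes the coumarin ring to give scopoletin. S8H (scopoletin 8-hydroxylase) makes fraxetin from scopoletin, and the cytochrome P450 CYP82C4 makes sideretin from fraxetin. The beta-glucosidase BGLU42 removes the sugar from stored coumarin glucosides, and the plasma membrane transporter ABCG37 exports coumarins from the root. The transcription factors MYB72 and MYB10 act together upstream in the iron-deficiency response.

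The study sequenced root RNA of seedlings aged 7 days, with 24 samples in 8 groups of 3. All seedlings spent 4 days with iron and 3 more on a final medium. The 5 POPEYE localization lines were PPL, SHR23, PEP45, WER13 and WER65. For these lines, the pye-1 mutant and 1 wild-type (WT) group the final medium lacked FeEDTA and held 300 µM of the iron chelator ferrozine. This iron-deficient wild type is written WT −Fe below. The other wild-type group stayed on 0.1 mM FeEDTA (WT +Fe). pye-1 is a mutant of POPEYE (PYE), a bHLH (basic helix-loop-helix) regulator of the response to low iron, and the sample records write its genotype as PYE. The GFP localization codes of the lines are V-EN-C-EP for PPL, V-EN for SHR23, C-EN-V for PEP45, EP-C for WER13 and EP for WER65, and the labels do not spell the codes out. The code of PPL holds every part found in the codes of the other lines. A deposited sheet on promoters that drive PYE places SHR in vasculature, SCR in endodermis, PEP in cortex and WER in epidermis. The labels do not say which background the lines carry, whether a line is 1 transformation event, or whether replicates came from separate plates.

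Expression is given in RPKM (reads scaled to gene length and library size), deposited as 1 mean per group. Every RPKM below is therefore the authors' mean, no spread between the 3 libraries can be given, and neighbours in an order of levels cannot be called different or alike. A rise or fall is stated only for genes that a deposited comparison of the authors holds at q under 0.05. Judged from the value of a single read, the libraries held 14800000 to 24000000 effective reads. PYE transcript stood at 25.3 RPKM in PPL, 45.8 in SHR23, 28.9 in PEP45, 30.3 in WER13, 27.5 in WER65, 20.6 in pye-1, 45.1 in iron-deficient wild type and 11.0 in iron-sufficient wild type. It was lower in pye-1 than in iron-deficient wild type (q = 0.0001 in the authors' deposited table), but transcript of the locus was still counted there, so the label is only partly checked. The 15 root markers (hair, Casparian strip, xylem and patterning genes) were all above 0 in every group, with a median of 11.1 to 68.6 RPKM over the 15. Shares over all genes are of the 19767 that reached 1 RPKM in some group. The authors' deposited table listed 11 of 15 as lower without iron in wild type, against 11.7% of these genes. It listed 9 of 15 as lower in pye-1 than in iron-deficient wild type, against 10.2%. Against the same group it listed 7 as lower in SHR23 (share 10.6%), 9 in PEP45 (9.64%), 7 in WER13 (14.1%) and 4 in WER65 (11.5%). It listed 1 as higher in each of SHR23 (7.56%) and WER13 (8.99%). In PPL it listed 0 as lower, but the share there was only 0.0101%. By value, 12 of 15 were lower and 3 higher in PPL. The part of root cell composition in the results below was not tested.

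The 9 genes lie on 4 chromosomes in TAIR10.1. F6H1 (AT3G13610, chromosome 3, 4449259 to 4450811, plus strand) and F6H2 (AT1G55290, chromosome 1, 20626029 to 20627513, minus strand) are a related pair with 2 exons each. Their coding sequences are 76.6% identical over 1083 aligned bases, and the longest identical stretch is 29 bases. The 60-base coding window in which they are most alike, coding bases 423 to 482 in each, is shown because the pair is measured at very different levels. Capitals mark the 5 mismatches.
F6H1: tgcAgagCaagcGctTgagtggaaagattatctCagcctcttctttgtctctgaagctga
F6H2: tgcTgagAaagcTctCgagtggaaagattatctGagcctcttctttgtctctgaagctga
S8H (AT3G12900, chromosome 3, 4104463 to 4106341, plus strand, 4 exons) belongs to the same enzyme family and is 64.8% identical to F6H1 in its coding sequence. MYB10 (AT3G12820, chromosome 3, 4073855 to 4075643, minus strand) and MYB72 (AT1G56160, chromosome 1, 21022384 to 21023587, plus strand) are 76.4% identical, with 3 exons each. CYP82C4 (AT4G31940) is on chromosome 4 at 15451988 to 15454224, plus strand, with 3 exons. COSY (AT1G28680) is on chromosome 1 at 10078189 to 10079909, plus strand, with 3 exons. BGLU42 (AT5G36890) is on chromosome 5 at 14541289 to 14546230, minus strand, with 14 exons. ABCG37 (AT3G53480) is on chromosome 3 at 19825267 to 19831880, plus strand, with 23 exons.

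The 250 bases before each gene start were searched on both strands for the G-box CACGTG and E-box CANNTG of basic helix-loop-helix factors and for the AC elements ACCNACC and ACCNAAC of MYB factors. Every CACGTG is also a CANNTG, and the AC elements do not contain either. CACGTG was in 0 of 9 windows, against 6.49% of 27443 protein-coding genes. CANNTG was in 5 of 9 (MYB10, F6H1, F6H2, S8H and ABCG37), against 55.3%. ACCNACC was in 2 of 9, against 6.1%, and ACCNAAC in COSY and BGLU42, against 14.5%. The windows of S8H (chr3:4104213-4104462) and CYP82C4 (chr4:15451738-15451987), both on the plus strand, are shown because these neighbouring steps of the route both hold ACCNACC, read on the opposite strand and written in capitals.
S8H: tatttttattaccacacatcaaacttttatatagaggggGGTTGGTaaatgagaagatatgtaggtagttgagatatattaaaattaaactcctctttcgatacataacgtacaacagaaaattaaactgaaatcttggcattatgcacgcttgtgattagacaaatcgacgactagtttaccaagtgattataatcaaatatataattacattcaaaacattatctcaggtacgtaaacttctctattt
CYP82C4: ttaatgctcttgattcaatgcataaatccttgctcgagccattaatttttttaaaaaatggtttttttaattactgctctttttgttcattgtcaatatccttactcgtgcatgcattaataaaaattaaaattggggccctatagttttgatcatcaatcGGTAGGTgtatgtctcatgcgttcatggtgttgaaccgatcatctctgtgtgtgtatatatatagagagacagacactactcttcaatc
The match ends 205 bases before the gene start in S8H and 83 bases before it in CYP82C4. These matches are a description of the letters, not of binding.

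MYB72 stood at 28.0 RPKM in PPL, 24.7 in SHR23, 16.1 in PEP45, 17.1 in WER13, 18.0 in WER65, 11.2 in pye-1, 37.7 in iron-deficient wild type and 0.146 in iron-sufficient wild type. The last value corresponds to about 7 reads over 3 libraries. MYB10 stood at 171 RPKM in PPL, 286 in SHR23, 151 in PEP45, 256 in WER13, 174 in WER65, 86.7 in pye-1, 207 in iron-deficient wild type and 4.12 in iron-sufficient wild type. MYB72 was highest in iron-deficient wild type, whereas MYB10 was highest in SHR23 and WER13. The ratio of MYB10 to MYB72 in RPKM was 6.11 in PPL, 11.6 in SHR23, 9.39 in PEP45, 15.0 in WER13, 9.64 in WER65, 7.74 in pye-1, 5.49 in iron-deficient wild type and 28.2 in iron-sufficient wild type, where MYB72 rests on few reads.

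F6H1 stood at 788 RPKM in PPL, 489 in SHR23, 326 in PEP45, 447 in WER13, 409 in WER65, 277 in pye-1, 1021 in iron-deficient wild type and 44.2 in iron-sufficient wild type. F6H2 stood at 0.562 RPKM in PPL, 0.215 in SHR23, 0.157 in PEP45, 0.156 in WER13, 0.708 in WER65, 0.242 in pye-1, 0.721 in iron-deficient wild type and 3.60 in iron-sufficient wild type. F6H2 was highest with iron, the reverse of F6H1, and its lowest value, in WER13, corresponds to about 10 reads over 3 libraries. F6H1 exceeded F6H2 by 1417-fold in iron-deficient wild type and by 12.3-fold in iron-sufficient wild type. COSY stood at 15.3 RPKM in PPL, 15.1 in SHR23, 11.0 in PEP45, 13.03 in WER13, 13.1 in WER65, 10.3 in pye-1, 17.2 in iron-deficient wild type and 9.24 in iron-sufficient wild type. By value its order of groups was that of F6H1 except for WER13 and WER65, which were nearly level for COSY. The whole range of COSY was below 2-fold, and F6H1 exceeded COSY by 59.4-fold in iron-deficient wild type.

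S8H had the widest range of the 9 genes. It stood at 1062 RPKM in PPL, 730.2 in SHR23, 256 in PEP45, 572 in WER13, 348 in WER65, 107 in pye-1, 1492 in iron-deficient wild type and 0.999 in iron-sufficient wild type. The iron-sufficient value corresponds to about 66 reads over 3 libraries. By RPKM, S8H ranked 21 of 33602 genes in iron-deficient wild type and 18433 in iron-sufficient wild type. CYP82C4 stood at 839 RPKM in PPL, 313 in SHR23, 170.0 in PEP45, 203 in WER13, 228 in WER65, 89.4 in pye-1, 1016 in iron-deficient wild type and 6.79 in iron-sufficient wild type. By value CYP82C4 was higher in WER65 than in WER13 and S8H higher in WER13, and neither difference was tested.

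BGLU42 stood at 121 RPKM in PPL, 56.7 in SHR23, 32.9 in PEP45, 46.9 in WER13, 46.6 in WER65, 20.5 in pye-1, 159 in iron-deficient wild type and 8.22 in iron-sufficient wild type. ABCG37 stood at 438 RPKM in PPL, 239 in SHR23, 199 in PEP45, 251 in WER13, 233 in WER65, 177 in pye-1, 481 in iron-deficient wild type and 129 in iron-sufficient wild type. ABCG37 was thus the member most expressed with iron, and its range was the narrowest after COSY. Together the 9 genes made up 0.508% of all RPKM in PPL, 0.308% in SHR23, 0.175% in PEP45, 0.277% in WER13, 0.223% in WER65, 0.12% in pye-1, 0.636% in iron-deficient wild type and 0.0297% in iron-sufficient wild type. F6H1, S8H and CYP82C4 held 79.6% of that sum in iron-deficient wild type and 25.2% in iron-sufficient wild type.

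**Figure D1:**
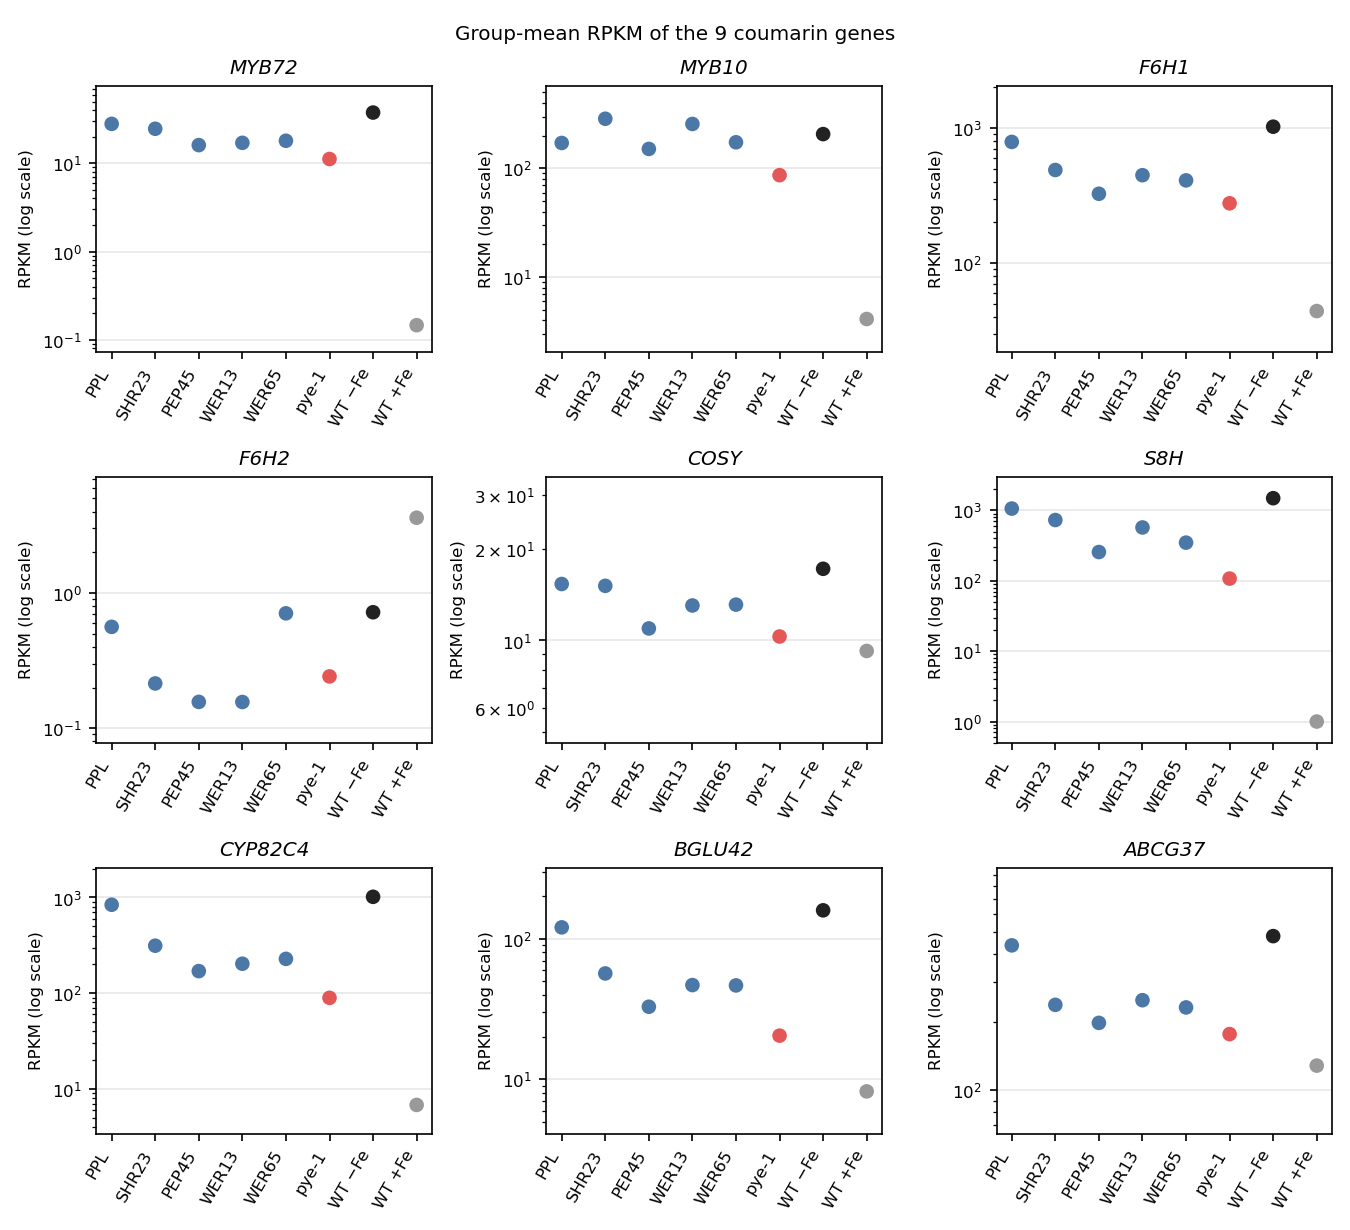
Authors' group-mean RPKM (log scale, a separate range per panel) of each gene in the 5 lines (blue), pye-1 (red), iron-deficient wild type (black) and iron-sufficient wild type (grey); each point is 1 mean with no error available. In 8 panels the grey point is the lowest, and in the F6H2 panel it is the highest, at 3.60 RPKM.

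The first comparison asked how the coumarin genes answered iron deficiency in wild type. Except for F6H2, the whole route rose, from its transcription factors to its exporter: the authors' deposited table listed 8 of 9 members as higher and 1 as lower without iron. Among 19767 genes that reached 1 RPKM in some group, the same table listed 10.3% as higher and 11.7% as lower. All 9 members passed that filter, F6H2 through its iron-sufficient value. The median log2 difference of the members, on log2(RPKM + 0.5), was 4.52, against -0.01 over the 19767 genes.

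The factors rose 257-fold for MYB72 and 50.1-fold for MYB10 (q = 3.75e-07 and 9.32e-06 in the authors' deposited table). F6H1 rose 23.1-fold (q = 1.54e-05 in the authors' deposited table) and COSY 1.86-fold (q = 0.00022 in the authors' deposited table), while F6H2 fell to 20.02% of its iron-sufficient level (q = 0.00596 in the authors' deposited table). Of the later hydroxylases, S8H rose 1494-fold (q = 3.75e-07 in the authors' deposited table) and CYP82C4 149-fold (q = 0.00021 in the authors' deposited table). By plain ratio MYB72 thus stood between them. On log2(RPKM + 0.5), which understates the change of low genes such as MYB72, S8H ranked 1, CYP82C4 ranked 3, MYB72 ranked 18 and MYB10 ranked 31 of the 19767 genes. BGLU42 rose 19.4-fold and ABCG37 3.74-fold (q = 3.75e-07 and 0.000361 in the authors' deposited table). The size of the rise thus differed widely along the route, being smallest for COSY, at its ring-closing step, and largest for S8H.

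Most, but not all, of 14 genes on a list of phenylpropanoid enzymes, called supply genes below, rose as well. The list includes COMT1 and 4CL3, and whether each of its genes feeds feruloyl-CoA to the branch was not tested. The authors' deposited table listed 9 of the 14 as higher and 1 as lower without iron, against 10.3% and 11.7% of the 19767 genes. It did not list PAL3, PAL4, 4CL3 and 4CL5. The median log2 difference of the 14 was 1.22. The 4-coumarate:CoA ligase gene 4CL2 (AT3G21240) stood at 352 RPKM in iron-deficient and 52.9 in iron-sufficient wild type (q = 1.93e-06 in the authors' deposited table). Its relative 4CL1 (AT1G51680) stood at 363 RPKM in WT −Fe and 119 in WT +Fe (q = 3.57e-05 in the authors' deposited table). C4H (AT2G30490), cinnamate 4-hydroxylase, stood at 822 RPKM in WT −Fe and 327 in WT +Fe (q = 5.28e-05 in the authors' deposited table). The O-methyltransferase gene COMT1 (AT5G54160) instead fell to 85.8 RPKM in WT −Fe, against 249 in WT +Fe (q = 3.68e-05 in the authors' deposited table). In the monolignol branch, which draws on the same precursors for lignin, the authors' deposited table listed 1 of 7 genes as higher and 2 as lower. Beside shares of 10.3% and 11.7% over the 19767 genes, these few calls do not set the branch apart. CCR2 (AT1G80820), a cinnamoyl-CoA reductase, stood at 14.6 RPKM in WT −Fe and 7.85 in WT +Fe (q = 0.00725 in the authors' deposited table). FAH1 (AT4G36220), ferulate 5-hydroxylase, stood at 4.30 RPKM in WT −Fe and 11.2 in WT +Fe (q = 0.0116 in the authors' deposited table), and CAD4 (AT3G19450), a cinnamyl alcohol dehydrogenase, at 144 RPKM in WT −Fe and 244 in WT +Fe (q = 0.00104 in the authors' deposited table).

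**Figure D2:**
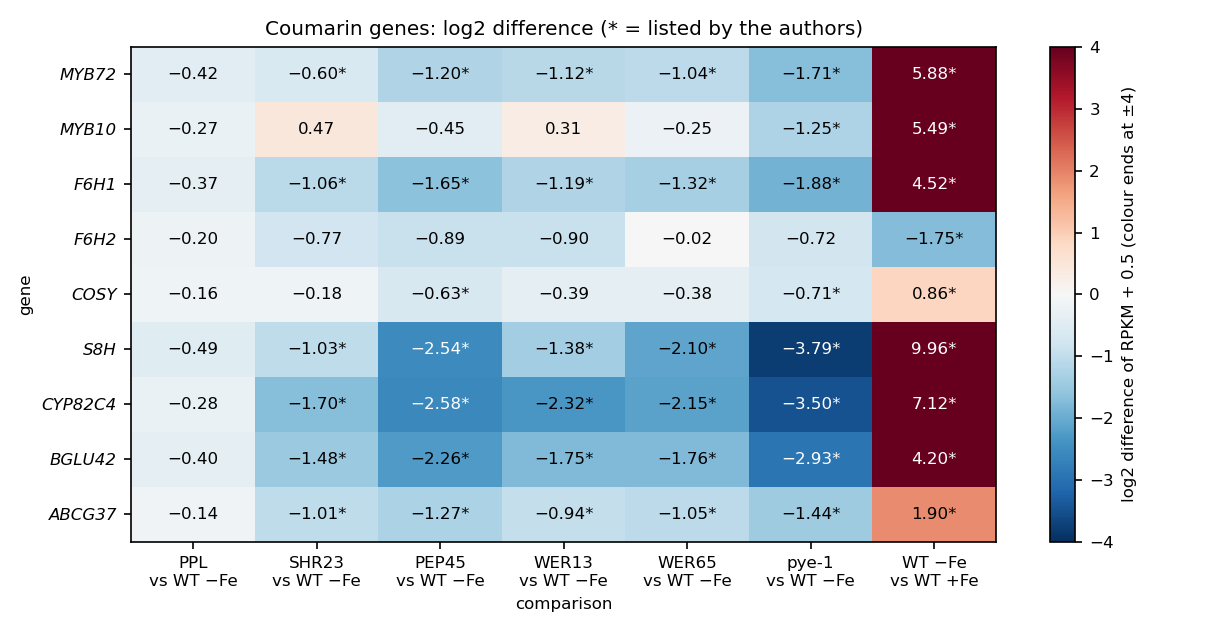
Log2 difference on log2(RPKM + 0.5) of each gene (rows) in 7 comparisons (columns), with colour ending at 4 in either direction and a star where the authors' deposited table lists the gene. The comparisons with iron-deficient wild type share that group, so their columns are not independent; the column for PPL holds no star, and MYB10 is starred in pye-1 but in none of the 5 lines.

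In pye-1 the route was lower than in iron-deficient wild type. The authors' deposited table listed 8 of 9 members as lower and 0 as higher, against 10.2% and 8.89% of the 19767 genes. The median log2 difference was -1.71 over the members and -0.004 over the 19767 genes. S8H fell to 7.20% of its wild-type level, CYP82C4 to 8.80% and BGLU42 to 12.8% (q = 1.16e-06, 2.96e-06 and 1.16e-06 in the authors' deposited table). Counted from the largest fall, S8H ranked 5 and CYP82C4 ranked 9 of the 19767 genes. F6H1 fell to 27.1%, MYB72 to 29.8%, ABCG37 to 36.9% and MYB10 to 41.9% (q = 9.82e-06, 1.41e-05, 5.54e-05 and 1.51e-05 in the authors' deposited table). COSY fell to 59.98% (q = 0.000696 in the authors' deposited table), and F6H2 was not listed at 0.242 RPKM, against 0.721 in WT −Fe. pye-1 stayed above iron-sufficient wild type by value for the 8 members other than F6H2, with S8H at 107 RPKM in pye-1, against 0.999 in WT +Fe. That pair was not compared by the authors.

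FIT (AT2G28160), a transcription factor required for the coumarin genes and for iron uptake, fell to 62.5 RPKM in pye-1, against 239.8 in iron-deficient wild-type roots (q = 0.000104 in the authors' deposited table). In WT +Fe it stood at 87.3 RPKM, above pye-1 by value. The part of FIT in the lowered route was not tested. Uptake targets of FIT fell as well, FRO2 (AT1G01580), the ferric chelate reductase, to 392 RPKM, against 1966 in WT −Fe (q = 1.16e-06 in the authors' deposited table). IRT1 (AT4G19690), the iron importer, fell to 1194 RPKM, against 3853 in WT −Fe (q = 1.48e-05 in the authors' deposited table). Among the 14 supply genes the authors' deposited table listed 5 as lower and 2 as higher. 4CL2 fell to 118 RPKM in pye-1, against 352 in WT −Fe, and PAL2 (AT3G53260), a phenylalanine ammonia-lyase, to 259, against 547 in WT −Fe (q = 3e-06 and 2.06e-05 in the authors' deposited table). COMT1 rose to 204 RPKM, against 85.8 in WT −Fe, and the flavonoid-linked ligase 4CL3 (AT1G65060) to 8.21, against 0.895 in WT −Fe (q = 1.76e-05 and 1.73e-05 in the authors' deposited table). MYB15 (AT3G23250), a factor of defence-related phenylpropanoid synthesis, rose to 10.2 RPKM in pye-1, against 3.38 in WT −Fe (q = 0.00108 in the authors' deposited table). This rise was not particular to pye-1. MYB15 was also listed as higher in SHR23, PEP45, WER13 and WER65, with q between 0.000133 and 0.000568 in the authors' deposited table. In WT +Fe it stood at 0.241 RPKM, below WT −Fe (q = 0.000366 in the authors' deposited table).

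Other transcripts also had unlike means in the same groups. The 12 green tissue markers summed to 68.1 RPKM in PPL, 30.03 in SHR23, 349 in PEP45, 10.6 in WER13, 5.90 in WER65, 52.0 in pye-1, 266 in iron-deficient wild type and 163 in iron-sufficient wild type. Against iron-deficient wild type, the authors' deposited table listed 0 of 12 in pye-1, PPL, SHR23 and PEP45. It listed 3 as lower in WER13, against 14.1% of the 19767 genes, and 4 in WER65, against 11.5%. For wild type without against with iron it listed 0 of 12. At 0 stood LHCB2.2 in SHR23 and WER13, and LHCB2.1, LHCB2.2, RBCS1B, RBCS2B and RBCS3B in WER65. S8H, for comparison, stood at 1062 RPKM in PPL, 730.2 in SHR23, 256 in PEP45, 572 in WER13, 348 in WER65, 107 in pye-1, 1492 in iron-deficient wild type and 0.999 in iron-sufficient wild type. The part of green tissue in the differences between groups was not tested. The root hair expansin gene EXPA7 (AT1G12560) was at 20.5 RPKM in PPL, 3.17 in SHR23, 3.93 in PEP45, 3.11 in WER13, 14.1 in WER65, 2.88 in pye-1, 25.9 in iron-deficient wild type and 68.6 in iron-sufficient wild type. The part of hair cells was likewise not tested. In whole roots, fewer cells of a type and less RNA per cell cannot be told apart.

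PPL had no member listed against iron-deficient wild type, in a table that holds few genes of any kind. This comparison table is headed PYE and was taken as that of PPL, the one line with no table under its own name. The authors' deposited table listed 0 of 9 members in either direction, against 0.0101% of the 19767 genes as lower and 0.00506% as higher. The count of 0 is thus near the share over all genes. All 9 members were lower by value, at 71.2% of the wild-type level for S8H, 75.7% for BGLU42, 77.2% for F6H1 and 91.0% for ABCG37. The median log2 difference was -0.275 over the members and -0.0079 over the 19767 genes. The table holds only genes under its q threshold and its test is not stated, so a count at an unadjusted threshold cannot be given. No member differed by 2-fold between the 2 groups. PYE itself was one of the few genes listed, and fell to 25.3 RPKM in PPL, against 45.1 in WT −Fe (q = 0.0178 in the authors' deposited table). None of the 14 supply genes was listed either, and 4CL2 stood at 310.2 RPKM in PPL, against 352 in WT −Fe.

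SHR23, with the code V-EN, had the main enzymes and the exporter of the route lowered, while MYB10 was above wild type by value and not listed. The authors' deposited table listed 6 of 9 members as lower and 0 as higher, against 10.6% and 7.56% of the 19767 genes. CYP82C4 fell to 30.8% of the iron-deficient wild-type level and BGLU42 to 35.6% (q = 6.77e-07 and 5.3e-07 in the authors' deposited table). F6H1, S8H and ABCG37 fell to 47.8%, 48.9% and 49.7% (q = 3e-05, 2.55e-05 and 2.42e-05 in the authors' deposited table). MYB72 fell to 65.5% (q = 0.000236 in the authors' deposited table). MYB10, at 286 RPKM against 207 in WT −Fe, COSY and F6H2 were not listed. FIT fell to 91.7 RPKM in SHR23, against 239.8 in WT −Fe (q = 1.17e-06 in the authors' deposited table). FRO2 fell to 1238 RPKM in SHR23, against 1966 in WT −Fe (q = 0.000114 in the authors' deposited table), while IRT1 was not listed at 3430.4, against 3853 in WT −Fe. The authors' deposited table listed 2 of 14 supply genes as higher and 0 as lower. 4CL3 rose to 22.6 RPKM, against 0.895 in WT −Fe, and COMT1 to 209, against 85.8 in WT −Fe (q = 1.36e-07 and 4.81e-07 in the authors' deposited table).

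PEP45, with the code C-EN-V, was the lowest of the 5 lines by value for 8 of the 9 members, F6H2 being the exception. The authors' deposited table listed 7 of 9 members as lower and 0 as higher, against 9.64% and 8.43% of the 19767 genes. CYP82C4 fell to 16.7%, S8H to 17.2% and BGLU42 to 20.6% of the iron-deficient wild-type level (q = 2.01e-07, 2.44e-07 and 3.51e-08 in the authors' deposited table). F6H1 fell to 31.9%, ABCG37 to 41.4%, MYB72 to 42.7% and COSY to 63.7% (q = 1.33e-06, 3.02e-06, 4.73e-06 and 0.000347 in the authors' deposited table). MYB10 was not listed at 151 RPKM, against 207 in WT −Fe. PEP45 was the only line in which the authors listed COSY. The authors' deposited table listed 4 of 14 supply genes as lower and 2 as higher. 4CL2 fell to 156 RPKM, against 352 in WT −Fe (q = 1.36e-06 in the authors' deposited table). FIT fell to 76.0 RPKM in PEP45, against 239.8 in WT −Fe (q = 1.83e-07 in the authors' deposited table).

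The lines with epidermal codes also had a lowered route. In WER13 (EP-C) the authors' deposited table listed 6 of 9 members as lower and 0 as higher, against 14.1% and 8.99% of the 19767 genes. In WER65 (EP) it listed 6 of 9 as lower and 0 as higher, against 11.5% and 7.87%. S8H fell to 38.4% of the iron-deficient wild-type level in WER13 and to 23.4% in WER65 (q = 1.42e-05 and 5.53e-06 in the authors' deposited table). CYP82C4 fell to 19.98% in WER13 and to 22.5% in WER65 (q = 0.000173 and 1.35e-05 in the authors' deposited table). BGLU42 fell to 29.4% in WER13 and 29.2% in WER65 (q = 6.89e-05 and 2.87e-06 in the authors' deposited table). F6H1 fell to 43.8% in WER13 and 40.1% in WER65, ABCG37 to 52.1% in WER13 and 48.4% in WER65, and MYB72 to 45.4% in WER13 and 47.9% in WER65, each listed as lower in the authors' deposited table. MYB10 was not listed in either line, at 256 RPKM in WER13 and 174 in WER65, against 207 in WT −Fe. No table compares the 2 lines with each other, and whether they differ was not tested. FIT fell to 109 RPKM in WER13 and 102 in WER65, against 239.8 in WT −Fe (q = 1.93e-06 and 8.55e-06 in the authors' deposited table). Of the 14 supply genes, the authors' deposited table listed COMT1 and 4CL3 as higher and 4CL2 as lower in each of these lines, and no other.

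To ask how far each line stood above the mutant, the lines were set beside pye-1. No deposited table covers these pairs, so genes at least 2-fold apart on log2(RPKM + 0.5) were counted with no replicate check and no test. In PPL 6 of 9 members were at least 2-fold higher than in pye-1, against 3.72% of the 19767 genes. In SHR23 5 members were, against 2.26%, and in WER13 4, against 0.809%. In WER65 3 members were, against 1.13%, and in PEP45 1, against 1.02%. No member was 2-fold lower in any line, where 2.93% of the 19767 genes were in PPL, 1.74% in SHR23, 1.92% in WER13, 1.07% in WER65 and 0.273% in PEP45.

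S8H was 9.89-fold higher in PPL, 6.80-fold in SHR23, 5.33-fold in WER13, 3.24-fold in WER65 and 2.38-fold in PEP45 than in pye-1. It was the 1 member past 2-fold in all 5 lines. CYP82C4 was 9.39-fold higher in PPL, 3.51-fold in SHR23, 2.55-fold in WER65, 2.27-fold in WER13 and 1.90-fold in PEP45. MYB10 was 3.30-fold higher in SHR23 and 2.96-fold in WER13, against 1.98-fold in PPL. F6H1 was 2.84-fold higher in PPL and between 1.18-fold and 1.76-fold higher in the other 4 lines. ABCG37 was 2.47-fold higher in PPL and between 1.12-fold and 1.41-fold in the other 4. COSY stayed between 1.06-fold and 1.49-fold in all 5 lines.

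By value, the balance between steps of the route differed among the iron-deficient groups. The ratio of S8H to F6H1 in RPKM was 1.35 in PPL, 1.49 in SHR23, 0.786 in PEP45, 1.28 in WER13, 0.851 in WER65, 0.388 in pye-1 and 1.46 in iron-deficient wild type. The ratio of CYP82C4 to S8H was 0.79 in PPL, 0.429 in SHR23, 0.664 in PEP45, 0.355 in WER13, 0.655 in WER65, 0.832 in pye-1 and 0.681 in iron-deficient wild type. SHR23 and WER13 thus had the lowest CYP82C4 to S8H ratios, with S8H to F6H1 ratios above 1 as in PPL and wild type. They were also the lines with the highest MYB10. These ratios are of means, with no error, and were not tested.

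**Figure D3:**
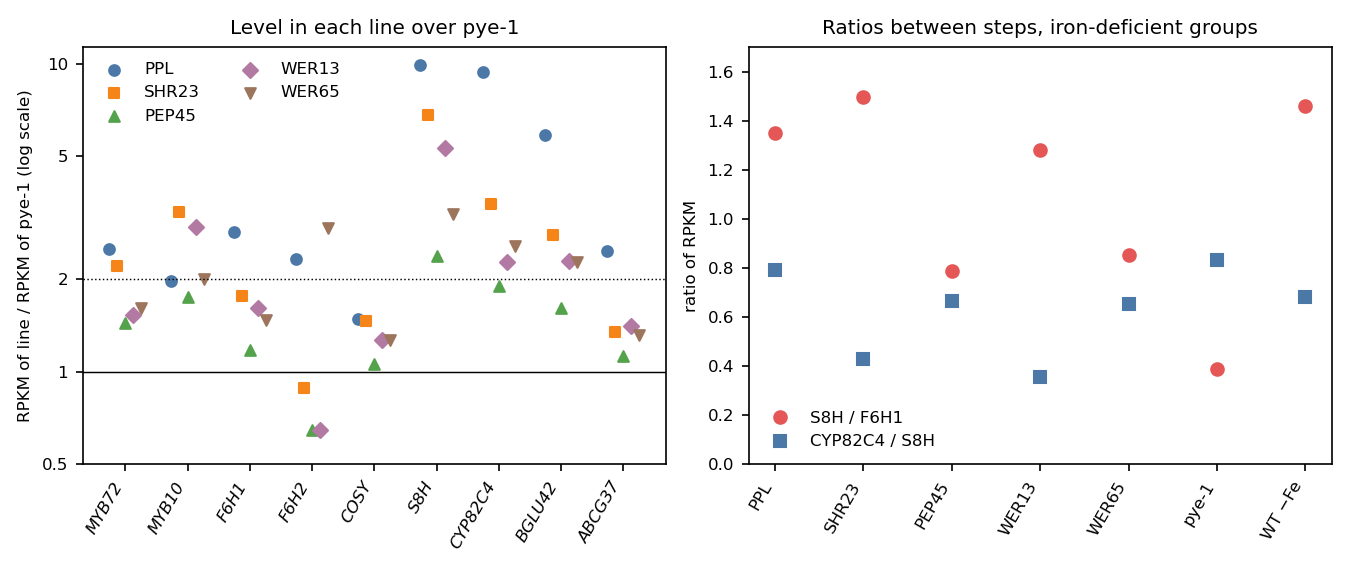
Left, RPKM in each line divided by RPKM in pye-1 (log scale; solid line at 1, dotted line at 2) for the 9 genes. These are plain ratios, whereas the 2-fold counts in the text use log2(RPKM + 0.5). F6H2 in PPL and WER65, and MYB10 in WER65, therefore pass the dotted line without being counted. Right, ratios of RPKM between steps in the iron-deficient groups, with S8H to F6H1 as circles and CYP82C4 to S8H as squares; pye-1 has the lowest circle at 0.388 and WER13 the lowest square at 0.355.

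**Figure D4:**
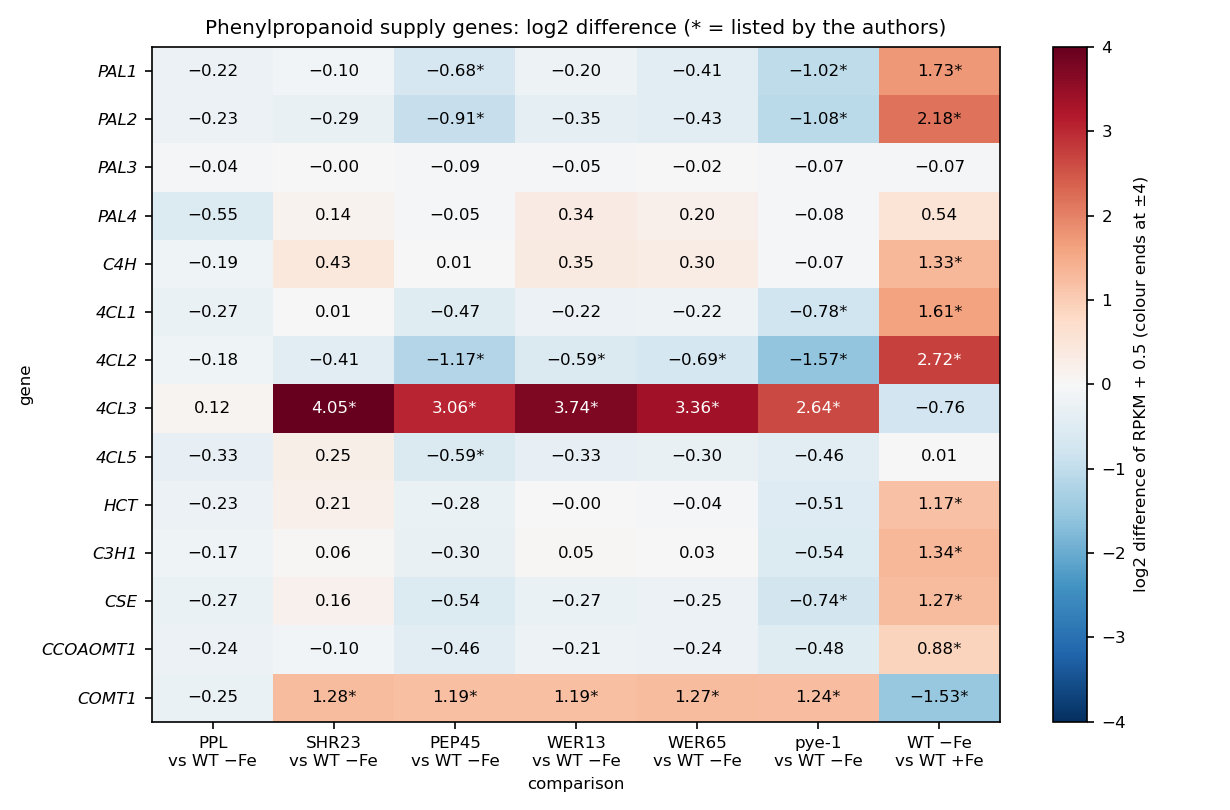
Log2 difference on log2(RPKM + 0.5) of the 14 phenylpropanoid supply genes in the same 7 comparisons, with colour ending at 4 in either direction and a star where the authors' deposited table lists the gene. 4CL3 and COMT1 are starred as higher in pye-1 and in the 4 lines other than PPL, and 9 genes are starred as higher without iron in wild type.

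The other glucosidases that release scopoletin from its glucoside differed from BGLU42 in the iron comparison. With iron withdrawn in wild type, the authors' deposited table listed 1 of 3 as lower and 0 as higher, whereas BGLU42 rose. The shares over the 19767 genes were 11.7% and 10.3%. BGLU23 (AT3G09260), the main enzyme of root endoplasmic reticulum bodies, fell to 5025 RPKM in WT −Fe, against 9107 in WT +Fe (q = 0.00394 in the authors' deposited table). BGLU42 and BGLU21 (AT1G66270) were not listed in PPL, whose table holds few genes of any kind. Like BGLU42, BGLU21 was listed as lower in pye-1, SHR23, PEP45, WER13 and WER65 in the authors' deposited table. It stood at 179 RPKM in PPL, 60.2 in SHR23, 39.9 in PEP45, 48.1 in WER13, 102 in WER65, 48.3 in pye-1, 249 in iron-deficient wild type and 303 in iron-sufficient wild type. The q was 0.000118 for pye-1 and between 8.92e-05 and 0.000692 for the 4 lines in the authors' deposited table. All 3 of these glucosidases were listed as lower in WER13 and in WER65 in the authors' deposited table, BGLU23 with q = 0.000469 and 0.00398. The shares listed as lower over the 19767 genes were 14.1% in WER13 and 11.5% in WER65. BGLU22 (AT1G66280) stood at 234 RPKM in PPL, 404 in SHR23, 82.3 in PEP45, 95.5 in WER13, 152 in WER65, 132 in pye-1, 302 in iron-deficient wild type and 362 in iron-sufficient wild type. It fell in PEP45, WER13 and WER65 against iron-deficient wild type in the authors' deposited table (q = 7.61e-05, 0.000224 and 0.00207).

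For each member the genes of most similar pattern were taken by Pearson's r of log2(RPKM + 0.5) over the 8 group means, among non-members reaching 5 RPKM. These are descriptions over 8 points that share libraries, and the wild-type groups with and without iron carry much of each r. S8H was most like AT3G48450, AT3G61930 and FRO2, each with r = 0.998. CYP82C4 was most like AT3G07270 and the metal transporter gene ZIP8 (AT5G45105), each with r = 0.995, and BAG7 (AT5G62390), with r = 0.994. F6H1 was most like ATPMEPCRB (AT4G02330), a pectin methylesterase gene, with r = 0.998, and BAG7 and MDAR1 (AT3G52880), a monodehydroascorbate reductase gene, each with r = 0.996. MYB72 was most like AT2G30660 and AT5G40590, each with r = 0.995, and PCS2 (AT1G03980), a phytochelatin synthase gene, with r = 0.994. MYB10 was most like AT3G27570 and AT1G07885, each with r = 0.995, and ATPK7 (AT3G27580), with r = 0.994.

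BGLU42 was most like AT3G07720 (r = 0.996), ATARD2 (AT4G14710, r = 0.995) and LSH1 (AT5G28490, r = 0.993). ABCG37 was most like TBL42 (AT1G78710, r = 0.991), AT5G52940 (r = 0.99) and AT3G47040 (r = 0.989). COSY was most like PP2-B6 (AT2G02310, r = 0.99), BEN1 (AT2G45400, r = 0.988) and APS3 (AT4G14680, r = 0.987). F6H2 stood apart, being most like the root hair gene RHS14 (AT4G22080) and AT1G33817, each with r = 0.991, and SP1L4 (AT5G15600), with r = 0.99. RHS14 stood at 1.12 RPKM in PPL, 0.421 in SHR23, 0.498 in PEP45, 0.350 in WER13, 1.92 in WER65, 0.417 in pye-1, 1.58 in iron-deficient wild type and 9.10 in iron-sufficient wild type. Within the 7 iron-deficient means, MYB10 had r = 0.749 with S8H and 0.483 with CYP82C4, while MYB72 had r = 0.956 and 0.970 with the same genes. Among the members, CYP82C4 and BGLU42 were the most alike there, with r = 0.994. F6H2, which rests on few reads, had r from 0.000 with MYB10 to 0.676 with ABCG37 over these 7 means. Over all 8 means its r with the same genes was -0.869 and -0.301, so its opposite pattern rests on the iron-sufficient mean.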

How the data were processed

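Poly(A)-selected, directional libraries were made from razor-separated roots, per the labels' protocols. The submitters' processing notes name TAIR10, FastQC, TopHat2 and edgeR, with no version, role or order; how reads were counted, with which strand setting and gene lengths, is not given in the sources used here. The authors deposited RPKM as 1 mean per group; the q-values are the authors' own, in 7 deposited tables, and their test is not stated. The comparison table headed PYE, of 3 genes, was read as PPL: the other groups each have a table under their own heading, and ATMRD1, which it lists as lower, is lower than iron-deficient wild type in the PPL column but nearly level in that of pye-1. Calls for PPL rest on that reading. Each value column belongs to a known group. The planned fallback to limma could not be used, since no values per library were at hand.

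Comparisons were counted over genes with at least 1 RPKM in at least 1 group. All comparisons of a line or pye-1 with iron-deficient wild type share its libraries, and those of lines with pye-1 share pye-1. Differences were taken on log2(RPKM + 0.5), folds and percentages as plain ratios of RPKM. Depth came from steps of single reads in 9610 single-exon genes: 23 distinct steps, 3 in 7 groups and 2 in iron-sufficient wild type. Read numbers of members are approximate, from these steps and exon lengths, and cover counting error only. Coordinates and sequences are RefSeq's, from TAIR10.1; the deposited tables hold none. Python 3.11.15, pandas 2.3.3 and Biopython 1.88 (global alignment) were used, and the fold rule, likeness and motif search were tested on simulated data. Members and lists were chosen with earlier results of these data known. Named genes were the members; up to 4 listed genes per list and comparison by smallest q; FIT, PYE, IRT1 and FRO2; and 3 genes per member by likeness. EXPA7, RHS14's levels and the members of the green list at 0 were given after their values were seen.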

Additional observations from a re-analysis of the deposited data

How the results depend on the processing

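Of 108 alternative values for 39 results, 100 lay within 1.5 times the value reported, among them every count of members from the authors' tables (at q under 0.01, with a 2-fold difference required as well, and by 2-fold alone) and every count of supply genes (at q under 0.01). Many of these 100 are counts of 0 that stayed at 0, which say little about stability. No listed member had q above 0.00596, so the threshold of 0.01 could change no count of members. The 8 others all concern counts of members above pye-1, which rest on no test. At 3-fold the counts were 3 in PPL, 3 in SHR23, 0 in PEP45, 1 in WER13 and 1 in WER65. At 1.5-fold they were 4 in PEP45 and 6 in WER65. With a pseudocount of 0.1 the count in WER65 was 5, since MYB10 and F6H2 then passed 2-fold. No paired analysis was possible because the tables hold 1 mean per group, and for the same reason no replicate could be left out. Precision is limited most for F6H2, with about 10 to 56 reads over 3 libraries in the iron-deficient groups, and for MYB72 with iron.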

Other observations

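MYB10 and S8H lie on the same stretch of chromosome 3 (4073855 to 4106341), with 10 annotated genes and 28819 bases between them. Of the 10, 8 were measured and none was listed in either direction for wild type without against with iron in the authors' deposited table. In pye-1, AT3G12830 was listed as lower, at 2.80 RPKM, against 5.19 in iron-deficient wild type, and AT3G12860 as higher, at 7.89, against 4.80, in the authors' deposited table. The highest of these 8 in iron-deficient wild type was AT3G12870, at 6.97 RPKM, against 7.79 with iron.

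CYP82C4 lies beside close copies. CYP82C3 (AT4G31950) is 92.7% identical in coding sequence, with an identical stretch of 97 bases, and CYP82C2 (AT4G31970), which makes a defence compound, is 93.0% identical. CYP82C3 did not exceed 0.0194 RPKM in any group. CYP82C2 stood at 2.31 RPKM in PPL, 1.15 in SHR23, 0.969 in PEP45, 0.266 in WER13, 1.13 in WER65, 6.13 in pye-1, 0.874 in iron-deficient wild type and 0.0817 in iron-sufficient wild type. It rose in pye-1 against iron-deficient wild type (q = 0.0012 in the authors' deposited table), where CYP82C4 fell, and also without iron in wild type (q = 0.00675 in the authors' deposited table). How reads common to these copies were assigned is not given in the sources used here, so the low values of CYP82C2 and CYP82C3 are uncertain.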
